A study of Mus musculus with 11 samples.

Results

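The 8 genes described here make up the endothelin system and the cysteinyl leukotriene receptors. They are the receptor genes Ednra, Ednrb, Cysltr1 and Cysltr2, the ligand genes Edn1, Edn2 and Edn3, and the converting enzyme gene Ece1. They were chosen by gene symbol, as Gq-coupled receptors with their ligands and converting enzyme, and all 8 were found among the 18756 mouse genes of the count table. RNA sequencing was done on 11 end-point skin tumours of a genetically engineered melanoma model in C57BL/6 mice. By genotype, 5 were GNA11 Q209L Bap1 KO, 2 were GNA11 Q209L and 4 were BRAF V600E Bap1 KO, with 1 library each. GNA11 Q209L is an activated form of a Gq family protein, BRAF V600E is an activated kinase of cutaneous melanoma, and Bap1 is a tumour suppressor that removes ubiquitin from chromatin. The labels give neither the age of the mice nor the promoter behind the recombinase, and they do not say whether tumours came from separate animals. GNA11 Q209L Bap1 KO replicates 1 and 2 share an identifier in their titles, and p-values measure only the spread between these samples.

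Endothelins are small peptides that are cut from a longer precursor by the membrane protease encoded by Ece1. They act on receptors that couple to Gq and G11, the G protein family to which the GNA11 Q209L oncogene belongs. The peptide of Edn3 and the receptor of Ednrb are needed in the mouse embryo for pigment cell precursors to survive and spread, and loss of either gives white spotting. The receptor of Ednra is better known from vascular smooth muscle and mesenchyme, where it takes up mainly the peptides of Edn1 and Edn2. The cysteinyl leukotriene receptors also couple to Gq, are found on leukocytes and on vessels, and an activating change of CYSLTR2 recurs in human uveal melanoma.

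The promoter windows of the endothelin receptor pair and of Edn1 are shown as examples, and matches in the windows of other members are given in words. Each window is RefSeq's, runs from 250 bases before to 50 bases after the gene start, 5′ to 3′, on GRCm38.p6. Capitals mark matches, on either strand, to 5 motifs. CACGTG is an E-box of the kind bound by Mitf, as is CATGTG. The motif ACAAT is a core bound by Sox factors and TGANTCA is the site bound by AP-1. The core of the hypoxia response element, ACGTG, lies inside CACGTG.
Ednrb, chr14:103843652-103843951, minus strand: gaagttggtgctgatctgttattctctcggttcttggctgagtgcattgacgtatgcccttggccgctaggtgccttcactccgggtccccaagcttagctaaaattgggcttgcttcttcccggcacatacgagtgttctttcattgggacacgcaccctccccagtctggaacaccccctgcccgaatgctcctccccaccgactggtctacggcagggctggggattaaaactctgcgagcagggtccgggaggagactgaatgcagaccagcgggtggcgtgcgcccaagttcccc
Ednra, chr8:77724403-77724702, minus strand: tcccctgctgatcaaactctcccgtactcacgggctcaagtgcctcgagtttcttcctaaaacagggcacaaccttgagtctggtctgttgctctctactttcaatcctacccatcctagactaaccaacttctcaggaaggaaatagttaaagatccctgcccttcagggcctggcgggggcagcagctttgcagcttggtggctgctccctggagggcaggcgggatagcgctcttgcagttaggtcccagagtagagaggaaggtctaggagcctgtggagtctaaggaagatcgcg
Edn1, chr13:42301226-42301525, plus strand: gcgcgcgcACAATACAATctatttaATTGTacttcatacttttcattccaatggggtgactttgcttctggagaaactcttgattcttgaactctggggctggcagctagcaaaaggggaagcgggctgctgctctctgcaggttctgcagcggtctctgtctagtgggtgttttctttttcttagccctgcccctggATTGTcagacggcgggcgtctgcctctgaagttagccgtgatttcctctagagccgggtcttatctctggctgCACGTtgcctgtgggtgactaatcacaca
The windows of Ednrb and Ednra held no match to any of the 5 motifs. The window of Edn1 held 4 matches to ACAAT and 1 to ACGTG. Among 32851 windows of the same length, 7.15% held CACGTG, 14.2% CATGTG, 31.0% ACAAT, 7.81% TGANTCA and 19.6% ACGTG. Windows of Cysltr2, Edn2 and Edn3 held no match, and of the 4 windows of Ece1 only the third did. It held 1 CACGTG, 1 ACAAT and 2 ACGTG, counted on either strand inside the CACGTG. Cysltr1 was not matched to a window.

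Libraries differed in depth and in the tissue they held. Total counts ran from 18338082 to 81035135 per library. The 14 melanocyte lineage genes summed to between 79585 and 102796 CPM (counts scaled to a common library size) for GNA11 Q209L Bap1 KO, to 69935 and 70858 CPM in GNA11 Q209L, and to between 82.7 and 686 CPM in BRAF V600E Bap1 KO. None of these 14 genes was at 0 in any library. The BRAF V600E Bap1 KO libraries thus held little RNA of these pigment cell genes, though the series describes a melanoma model. Fewer pigment cells and less of this RNA per cell cannot be told apart in bulk samples. Counts of the human GNA11 Q209L transgene, not scaled to depth, were 120 to 1005 in GNA11 Q209L Bap1 KO, and 877 and 2807 in GNA11 Q209L. The 1005 came from a library of 69712229 total counts, the 877 and 2807 from libraries of 42180280 and 25792449. Relative to total counts, both GNA11 Q209L libraries lay above all 5 GNA11 Q209L Bap1 KO libraries. BRAF V600E Bap1 KO had 0 to 5 counts of this transgene and 43 to 81 counts of the human BRAF exons, against at most 1 elsewhere. BRAF V600E Bap1 KO replicate 4 stood apart with 175109 CPM of 7 salivary gland genes, against at most 49.1 CPM in each of the other 10 libraries. GNA11 Q209L replicate 1 held 12138 CPM of 12 fibroblast genes and 7580 CPM of 11 macrophage and myeloid genes, while replicate 2 held 2926 and 913 CPM. The header lines at the top of the table call Bap1 floxed in all 4 BRAF libraries, while those at its foot give NA for replicates 2 and 4. The gene-level count of Bap1 averaged 121 ± 29.7 CPM for GNA11 Q209L Bap1 KO, 111 ± 36.8 CPM for GNA11 Q209L and 60.9 ± 7.27 CPM for BRAF V600E Bap1 KO (SD, n = 5, 2 and 4). A count over the whole gene does not check a floxed deletion.

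Ednrb (ENSMUSG00000022122), which encodes a receptor for all endothelins, had a narrow range in the GNA11 Q209L Bap1 KO tumours and a wide one elsewhere. It stood at 24.4, 25.7, 22.2, 24.2 and 20.1 CPM in GNA11 Q209L Bap1 KO, at 410.2 and 57.7 CPM in GNA11 Q209L, and the BRAF V600E Bap1 KO libraries gave 14.0, 14.7, 31.1 and 106 CPM. The highest library was 1.28 times the lowest within GNA11 Q209L Bap1 KO and 7.58 times within BRAF V600E Bap1 KO. All 5 GNA11 Q209L Bap1 KO libraries lay below both GNA11 Q209L libraries and inside the range of BRAF V600E Bap1 KO.

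Ednra (ENSMUSG00000031616), the endothelin receptor of smooth muscle and mesenchyme, was lowest in GNA11 Q209L Bap1 KO. Its values were 5.97, 5.20, 4.71, 3.86 and 7.80 CPM there, 38.4 and 11.1 CPM in GNA11 Q209L, and 43.9, 21.6, 62.9 and 37.8 CPM in the BRAF V600E Bap1 KO libraries. The 5 GNA11 Q209L Bap1 KO libraries lay below every other library, while GNA11 Q209L and BRAF V600E Bap1 KO overlapped.

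Cysltr1 (ENSMUSG00000052821), the leukotriene receptor that is the target of asthma drugs such as montelukast, was low in GNA11 Q209L Bap1 KO. Its values there were 0.380, 0.442, 0.649, 0.952 and 0.242 CPM, from 7 to 20 counts a library. In GNA11 Q209L it stood at 4.29 and 0.223 CPM, and in BRAF V600E Bap1 KO at 10.3, 13.9, 7.0 and 12.1 CPM. The BRAF V600E Bap1 KO libraries all lay above the other 7, and GNA11 Q209L replicate 2 lay below every GNA11 Q209L Bap1 KO library.

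Cysltr2 (ENSMUSG00000033470), the receptor whose human counterpart is mutated in uveal melanoma, gave only 6 counts over the 5 GNA11 Q209L Bap1 KO libraries. These were 2, 1, 0, 1 and 2 counts, or 0.0492 ± 0.0394 CPM (SD, n = 5). GNA11 Q209L replicate 1 had 41 counts (1.07 CPM) and replicate 2 had 1 count (0.0446 CPM). BRAF V600E Bap1 KO had 0.966, 3.27, 0.313 and 0.787 CPM. Every BRAF library lay above every GNA11 Q209L Bap1 KO library, with GNA11 Q209L replicate 1 inside the BRAF range and replicate 2 inside the other.

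Among the ligands, Edn1 (ENSMUSG00000021367), which encodes the vasoconstrictor peptide of endothelium and epithelium, stood at 0.489, 0.166, 0.811, 0.809 and 0.259 CPM in GNA11 Q209L Bap1 KO. GNA11 Q209L gave 1.47 and 0.0446 CPM, with 1 count in replicate 2, and BRAF V600E Bap1 KO 0.798, 6.44, 3.48 and 13.9 CPM. BRAF V600E Bap1 KO replicate 1 was as low as the highest GNA11 Q209L Bap1 KO libraries, and the other BRAF libraries lay above them.

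Edn2 (ENSMUSG00000028635), which encodes a peptide close to that of Edn1 in its receptor preference, had 0 counts in all 7 GNA11 Q209L libraries, with or without Bap1 KO. BRAF V600E Bap1 KO gave 94, 1, 5 and 68 counts, or 1.06, 0.0341, 0.174 and 2.97 CPM. A count of 0 over a whole group allows up to 0.0224 CPM for GNA11 Q209L Bap1 KO and up to 0.0495 CPM for GNA11 Q209L, taking 3 counts as the limit, for counting error only.

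Edn3 (ENSMUSG00000027524), the ligand that acts on pigment cell precursors through Ednrb, had 0 counts in all 5 GNA11 Q209L Bap1 KO libraries. GNA11 Q209L gave 2 and 0 counts, and BRAF V600E Bap1 KO 0, 0, 52 and 13 counts. It was thus detected above 3 counts only in BRAF V600E Bap1 KO replicates 3 and 4, at 1.81 and 0.568 CPM. These are also the libraries highest in the sum of 12 keratinocyte genes, at 13712 and 4662 CPM, against 168 and 349 CPM in BRAF V600E Bap1 KO replicates 1 and 2. They were also the highest in the fibroblast sum, at 23026 and 15442 CPM against 3537 and 3295 CPM, and above replicates 1 and 2 in the sum of 8 Schwann cell genes, at 1983 and 1029 CPM against 72.7 and 353 CPM. Elsewhere, GNA11 Q209L Bap1 KO replicate 1 held 2020 CPM of keratinocyte genes with 0 counts of Edn3. GNA11 Q209L Bap1 KO replicate 4 held 1057 CPM of Schwann cell genes with 0 counts of Edn3. GNA11 Q209L replicate 1 held 12138 CPM of fibroblast genes with 2 counts of Edn3. The part of these cell types in the level of Edn3 was not tested.

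Ece1 (ENSMUSG00000057530), the enzyme that releases active endothelins, was well expressed in every tumour. It stood at 159, 225, 135, 105 and 170.3 CPM in GNA11 Q209L Bap1 KO, at 123 and 97.7 CPM in GNA11 Q209L, and at 283, 96.0, 119 and 175 CPM in the BRAF V600E Bap1 KO libraries. The 3 genotypes overlapped.

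**Figure D1:**
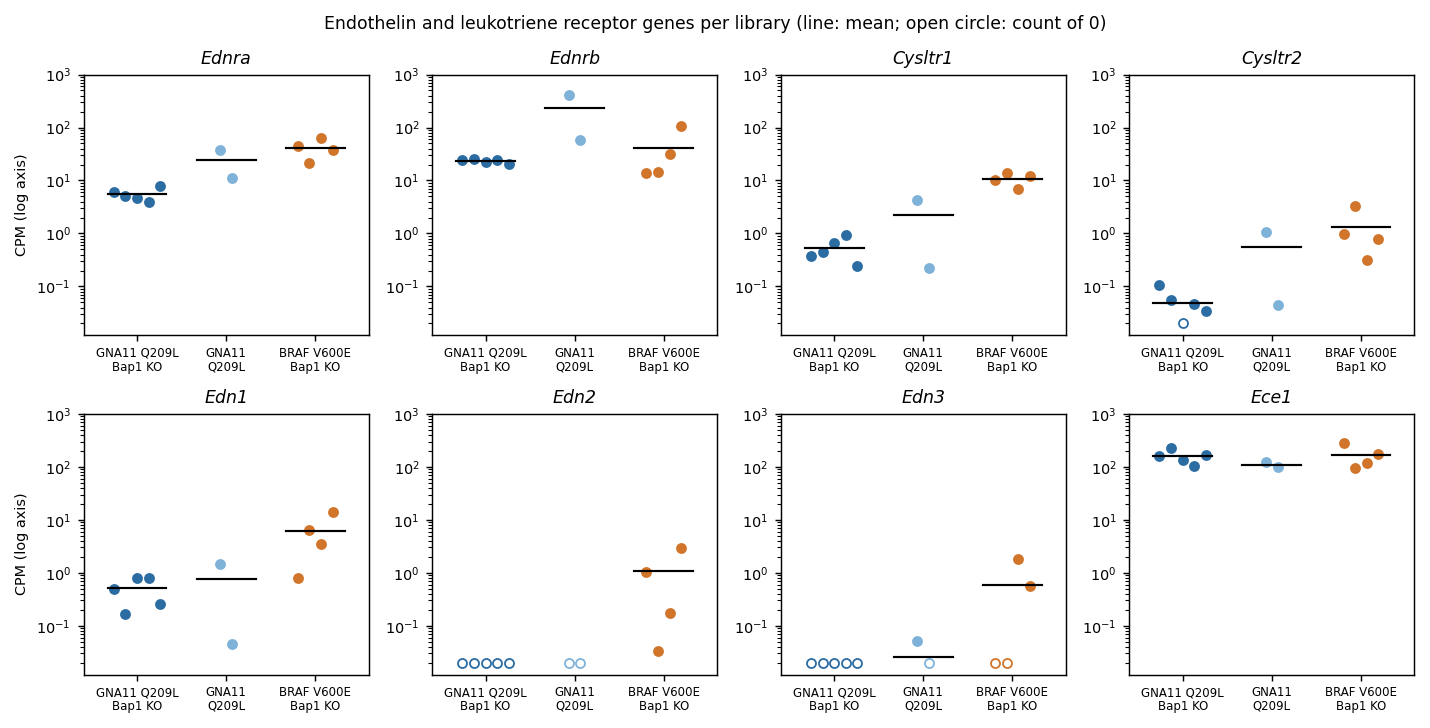
CPM of the 8 genes in each library (log axis, replicates in order from left to right), with GNA11 Q209L Bap1 KO, GNA11 Q209L and BRAF V600E Bap1 KO as columns, the mean as a line and a count of 0 as an open circle at the foot. Ednra, Cysltr1 and Cysltr2 lie lower in all 5 GNA11 Q209L Bap1 KO libraries than in any BRAF V600E Bap1 KO library, while Ednrb and Ece1 overlap.

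Levels can be set between genes only per length of transcript, here as CPM per kilobase of the exons in GENCODE M21, an annotation of a later build than the files'. In GNA11 Q209L Bap1 KO the order was Ece1 at 30.0 ± 8.46, Ednrb at 5.46 ± 0.509, Ednra at 1.01 ± 0.273, Edn1 at 0.237 ± 0.141, Cysltr1 at 0.104 ± 0.0537 and Cysltr2 at 0.0171 ± 0.0137 CPM per kilobase (SD, n = 5). Edn1 and Cysltr1 were the neighbours in that order whose ranges overlapped. In GNA11 Q209L the order, as means of 2 libraries, was Ednrb at 54.8 (13.5 and 96.1), Ece1 at 20.8, Ednra at 4.52, Cysltr1 at 0.439, Edn1 at 0.353 and Cysltr2 at 0.195 CPM per kilobase. Ranges of neighbours overlapped there except between Ednra and the genes on either side of it. In BRAF V600E Bap1 KO it was Ece1 at 31.7 ± 15.8, Ednrb at 9.70 ± 10.2, Ednra at 7.59 ± 3.12, Edn1 at 2.88 ± 2.64, Cysltr1 at 2.10 ± 0.570, Edn2 at 0.725 ± 0.926, Cysltr2 at 0.465 ± 0.460 and Edn3 at 0.145 ± 0.208 CPM per kilobase (SD, n = 4). Among these neighbours, the ranges overlapped for each pair.

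Set against GNA11 Q209L, the GNA11 Q209L Bap1 KO tumours address the Bap1 label under a shared oncogene label. Relative to total counts, the GNA11 Q209L transgene was lower in all 5 GNA11 Q209L Bap1 KO libraries than in either GNA11 Q209L library. Its part in the results was not tested. None of the 8 genes passed the test, which called 5 of 17350 genes (0.0288% in either direction, 0.0231% lower and 0.00576% higher, with 1970 at an unadjusted p under 0.05). The test was edgeR's quasi-likelihood test with Benjamini-Hochberg adjustment over all genes tested, at an adjusted p of 0.05. The groups did not overlap for 2 of the 8 genes, Ednra and Ednrb, where 16.6% of all genes tested do not (9.01% with GNA11 Q209L Bap1 KO lower). Ednra averaged 5.51 ± 1.49 CPM in the 5 GNA11 Q209L Bap1 KO libraries, against 24.8 ± 19.2 CPM in the 2 of GNA11 Q209L (SD), a log2 fold change of -2.17 ± 0.47 (SE, edgeR adjusted p = 0.161). Ednrb averaged 23.3 ± 2.17 against 234 ± 249 CPM (log2 -3.33 ± 0.76, edgeR adjusted p = 0.174). DESeq2 called Ednra (adjusted p = 0.00621), and edgeR fitted to these genotypes alone called Ednrb (adjusted p = 0.0476).

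For the leukotriene receptors and the ligand Edn1 the direction itself rested on GNA11 Q209L replicate 1. Log2 fold changes were -2.09 ± 0.80 for Cysltr1 (SE, edgeR adjusted p = 0.364), -3.48 ± 1.14 for Cysltr2 (0.309) and -0.60 ± 1.14 for Edn1 (0.902). Without GNA11 Q209L replicate 1 they were 1.23, 0.08 and 3.39, and those of Ednra and Ednrb were -1.02 and -1.31 (edgeR adjusted p = 0.947 for both), where the lone GNA11 Q209L library is assumed to vary like the other genotypes. Ece1 averaged 159 ± 44.8 CPM for GNA11 Q209L Bap1 KO, against 110.3 ± 17.8 CPM for GNA11 Q209L (log2 0.53 ± 0.43, edgeR adjusted p = 0.701). No fold is given for Edn2 and Edn3, at or under 3 counts in both genotypes.

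GNA11 Q209L replicate 1, the library highest in Ednrb, was also the highest of the 7 GNA11 Q209L libraries in endothelial, macrophage and fibroblast sums. It was not the highest in smooth muscle and pericyte genes (1028 against 1134 CPM in replicate 2). Nor was it in Schwann cell genes (780 CPM) or keratinocyte genes (14.1 CPM). Its mast cell sum was the lowest of the 7 (178 CPM), but that sum is nearly all Mrgprb1. The other 8 mast cell genes, a set chosen after the values were seen, summed to 7.93 CPM in replicate 1 and 0.758 CPM in replicate 2. In GNA11 Q209L Bap1 KO they summed to 0.622 to 8.22 CPM. The 12 endothelial genes of GNA11 Q209L replicate 1 summed to 1267 CPM, against 779 CPM in replicate 2 and 455 to 645 CPM in GNA11 Q209L Bap1 KO. Its macrophage and myeloid sum was 7580 CPM, against 239 to 1283 CPM for GNA11 Q209L Bap1 KO, and its fibroblast sum was 12138 CPM, against 384 to 2389 CPM there. No endothelial or fibroblast gene of these lists was at 0 in any library, and of the macrophage genes only Cd163 was, in GNA11 Q209L Bap1 KO replicate 5. In these bulk samples fewer cells of a type and less RNA per cell cannot be told apart, and the part of these cells in the levels was not tested.

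**Figure D2:**
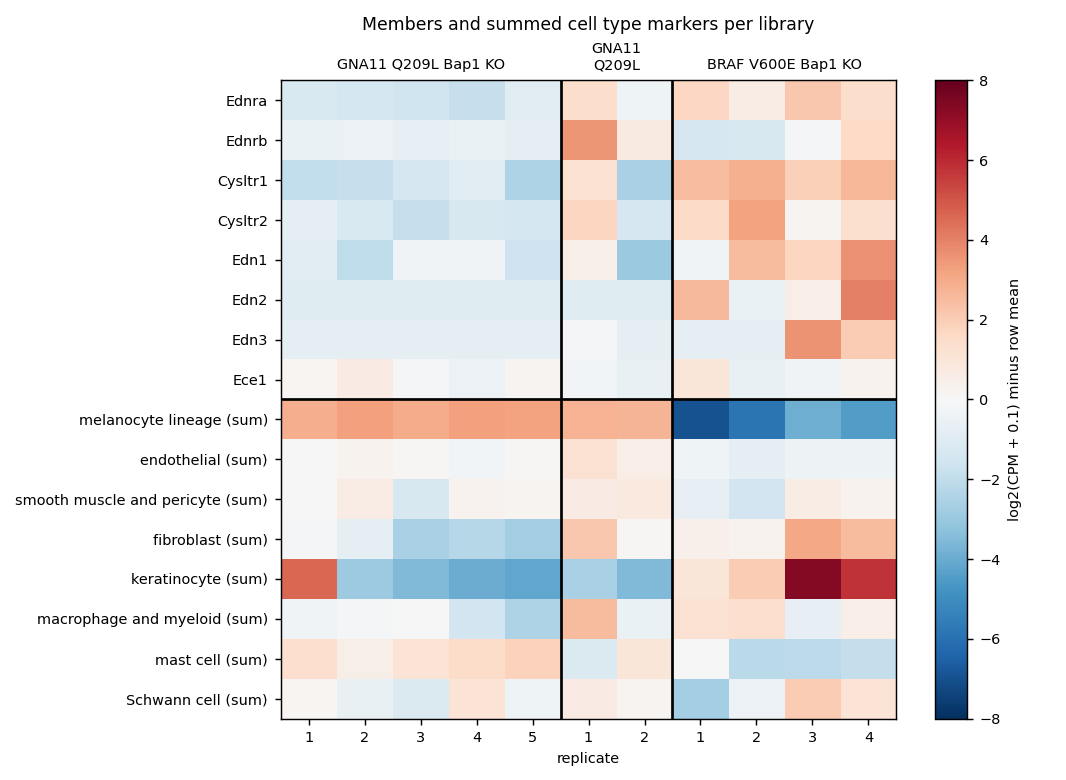
Level of the 8 genes and of summed marker lists (log2 of CPM + 0.1 minus the row's mean over 11 libraries, colour scale at right), with libraries as columns. GNA11 Q209L replicate 1 is the highest library for Ednrb and stands high in fibroblast and macrophage sums. The mast cell sum in GNA11 Q209L tumours is nearly all Mrgprb1, as the other 8 genes sum to at most 8.22 CPM in any of them.

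Set against BRAF V600E Bap1 KO, the GNA11 Q209L Bap1 KO tumours differ in the labelled oncogene, with Bap1 KO on both labels. They differ in melanocyte lineage RNA too, with sums of 79585 to 102796 CPM against 82.7 to 686 CPM. Counts of the CreERT2 recombinase were 3339 to 13760 against 6 to 708. Oncogene, tissue content and marker RNA per cell cannot be told apart in this comparison. Here 3 receptors and 2 ligands were lower in GNA11 Q209L Bap1 KO, while Ednrb and Ece1 did not pass. The 5 genes called are Ednra, Cysltr1, Cysltr2, Edn1 and Edn2, and no member was called higher. With at most 2 counts of Cysltr2 and 0 of Edn2 in a GNA11 Q209L Bap1 KO library, these genes passed the expression filter through other libraries. Once past it they could only be called lower, so their direction is no support for the others. Across all genes 24.7% were called lower and 16.5% higher, so lower calls were common here. The deposited 5′ bias, a measure of library quality, was 0.82 to 0.85 in GNA11 Q209L Bap1 KO and 0.74 to 0.81 in BRAF V600E Bap1 KO, with 0.74 and 0.84 in GNA11 Q209L, and its part in the results was not tested. The groups did not overlap for 4 of the 8 genes, where 31.8% of all genes do not (17.2% with GNA11 Q209L Bap1 KO lower).

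Ednra averaged 5.51 ± 1.49 CPM in the 5 GNA11 Q209L Bap1 KO libraries, against 41.6 ± 17.1 CPM in the 4 of BRAF V600E Bap1 KO (SD), with a log2 fold change of -2.91 ± 0.42 (SE, edgeR adjusted p = 0.00105). It was 7.55-fold lower, and stayed called in each of the 19 alternative settings, with adjusted p at most 0.00406. Ednrb averaged 23.3 ± 2.17 against 41.4 ± 43.6 CPM (log2 -0.83 ± 0.65, edgeR adjusted p = 0.32). The direction for Ednrb rested on BRAF V600E Bap1 KO replicate 4, the library with salivary gland RNA, without which the log2 fold change was 0.22.

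Cysltr1 averaged 0.533 ± 0.276 against 10.8 ± 2.93 CPM, 20.3-fold lower in GNA11 Q209L Bap1 KO (log2 -4.34 ± 0.75 SE, edgeR adjusted p = 0.00229). Cysltr2 averaged 0.0492 ± 0.0394 against 1.33 ± 1.32 CPM (log2 -4.71 ± 1.05, edgeR adjusted p = 0.00693), and its log2 fold change was -3.78 without BRAF V600E Bap1 KO replicate 2. Both receptors kept their calls in each setting that tested them, with adjusted p at most 0.013 and 0.0379. Cells that are known to carry these receptors differed too. The 9 mast cell genes summed to 540 to 1430 CPM for GNA11 Q209L Bap1 KO and to 88.3 to 384 CPM for BRAF V600E Bap1 KO, with 1 called higher and 8 lower. The higher one was Mrgprb1, at 976 ± 329 against 7.24 ± 5.16 CPM (log2 7.07 ± 0.73, edgeR adjusted p = 0.000246). The other 8 genes, a set chosen after the values were seen, summed to 0.622 to 8.22 CPM in GNA11 Q209L Bap1 KO, with Fcer1a at 0 in all 5 libraries, and to 85.3 to 369.7 CPM for BRAF V600E Bap1 KO. The 11 macrophage and myeloid genes summed to 239 to 1283 CPM and to 847 to 3412 CPM, and 3 of them were called lower. The part of mast cells and macrophages in the receptor levels was not tested.

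The ligand Edn1 averaged 0.507 ± 0.301 against 6.16 ± 5.66 CPM (log2 -3.60 ± 0.98 SE, edgeR adjusted p = 0.0159). Its log2 fold change was -2.83 without BRAF V600E Bap1 KO replicate 4, and the call was lost with limma voom (adjusted p = 0.0776) and without BRAF V600E Bap1 KO replicates 2 and 4 together (edgeR adjusted p = 0.164). Edn2 was at least 47.3-fold lower in GNA11 Q209L Bap1 KO (edgeR adjusted p = 0.0224), and at least 18.8-fold lower without BRAF V600E Bap1 KO replicate 4. It passed the expression filter only through BRAF V600E Bap1 KO replicates 1 and 4, was not tested without either of them, and had an edgeR adjusted p of 0.0234 with no filter. Edn3 did not pass (edgeR adjusted p = 0.0573), and did without BRAF V600E Bap1 KO replicate 1 (0.0291) or replicate 2 (0.047). Those are the BRAF libraries with 0 counts of Edn3. The gene passed the expression filter only through BRAF V600E Bap1 KO replicates 3 and 4, and was not tested without either of them. With 0 counts in every GNA11 Q209L Bap1 KO library, Edn3 could only be called lower. Its mean of 0.595 CPM in BRAF V600E Bap1 KO is at least 26.5-fold the level that 0 counts allow in GNA11 Q209L Bap1 KO, and at least 8.45-fold without BRAF V600E Bap1 KO replicate 3. Keratinocytes are known to make endothelins, and 12 of their genes summed to 4.63 to 2020 CPM for GNA11 Q209L Bap1 KO and to 168 to 13712 CPM for BRAF V600E Bap1 KO, and up to 6 of them were at 0 in a GNA11 Q209L Bap1 KO library. The part of keratinocytes in the ligand levels was not tested. Ece1 averaged 159 ± 44.8 against 168 ± 83.5 CPM (log2 -0.08 ± 0.33, edgeR adjusted p = 0.86).

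Endothelial markers were not lower in this comparison. The 12 endothelial genes summed to 455 to 645 CPM for GNA11 Q209L Bap1 KO and to 309 to 416 CPM in the BRAF V600E Bap1 KO libraries, with 2 called higher and 0 lower. The 12 smooth muscle and pericyte genes summed to 274 to 978 CPM and to 224 to 1008 CPM, and of the 11 tested only Pdgfrb was called, and lower. Fibroblast genes did differ, with 11 of 12 called lower and sums of 384 to 2389 CPM against 3295 to 23026 CPM. The part of fibroblasts in the level of Ednra was not tested.

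The comparison of GNA11 Q209L against BRAF V600E Bap1 KO changes oncogene and Bap1 label at once. None of the 8 genes passed edgeR's test there, while 15.2% of all genes did (5.93% lower, 9.27% higher), and the groups did not overlap for Cysltr1 and Edn2, where 41.9% of all genes do not (22.9% with GNA11 Q209L lower). Ednrb averaged 234 ± 249 CPM (SD, n = 2) against 41.4 ± 43.6 CPM (SD, n = 4), with a log2 fold change of 2.50 ± 0.81 (SE, edgeR adjusted p = 0.0584). It was 0.49 without GNA11 Q209L replicate 1 and 3.55 without BRAF V600E Bap1 KO replicate 4 (edgeR adjusted p = 0.0135). The other log2 fold changes were -0.75 ± 0.54 for Ednra, -2.25 ± 0.97 for Cysltr1, -1.22 ± 1.18 for Cysltr2, -3.00 ± 1.38 for Edn1 and -0.61 ± 0.44 for Ece1, with edgeR adjusted p from 0.122 to 0.469. Those of the receptors and Edn1 moved by over 1.5 times with a single GNA11 Q209L library left, which is then assumed to vary like the other genotypes. With replicate 2 alone the log2 fold changes were -1.89 for Ednra, -5.57 for Cysltr1 (edgeR adjusted p = 0.0239), -4.78 for Cysltr2 and -6.98 for Edn1. With replicate 1 alone they were -0.11, -1.33, -0.32 and -2.05 for the same genes. That of Cysltr2 was -0.28 without BRAF V600E Bap1 KO replicate 2, that of Edn1 was -2.22 without BRAF V600E Bap1 KO replicate 4, and that of Ece1 was -0.24 without BRAF V600E Bap1 KO replicate 1. DESeq2 called Cysltr1, Edn1 and Edn2 (adjusted p = 0.0285, 0.0325 and 0.0282), and limma voom called Cysltr1 (adjusted p = 0.0381). Edn2 was at least 21.4-fold lower in GNA11 Q209L (edgeR adjusted p = 0.104). Edn3 in BRAF V600E Bap1 KO was 18.0-fold its level in GNA11 Q209L, with a 95% Poisson interval of 4.99 to 149 from the 2 counts (edgeR adjusted p = 0.311). The comparisons share libraries, so their values for a gene are not independent of each other.

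**Figure D3:**
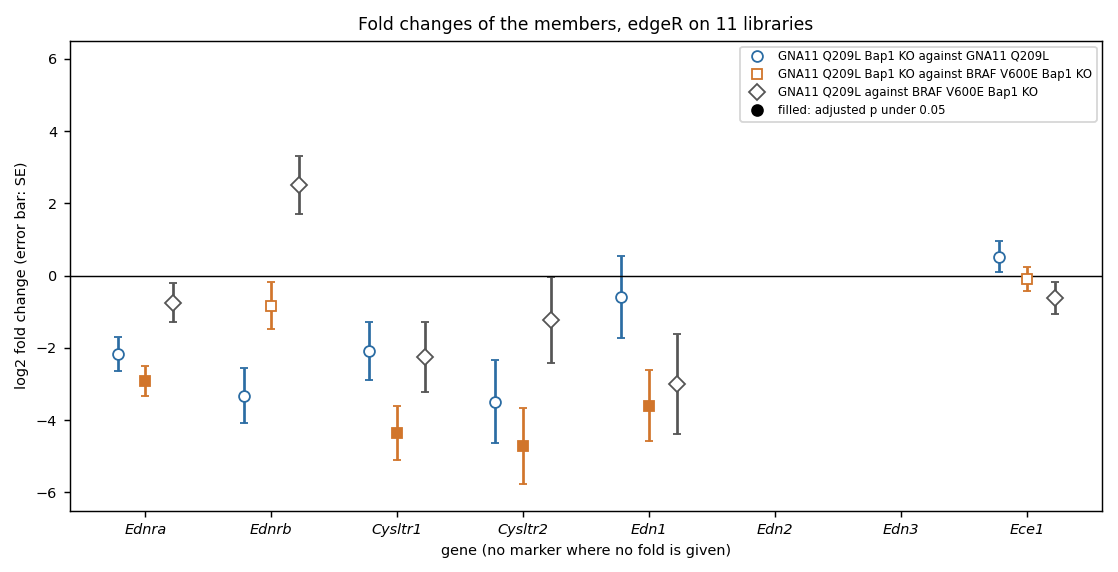
Log2 fold change of each gene with its SE in the 3 comparisons, filled where the edgeR adjusted p is under 0.05. Filled markers are Ednra, Cysltr1, Cysltr2 and Edn1 in GNA11 Q209L Bap1 KO against BRAF V600E Bap1 KO. Edn2, also called there, and Edn3 have no marker because counts of 0 give a bound only.

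The balance of the endothelin receptors was taken in each library as the log2 ratio of Ednrb to Ednra, in which library scaling largely cancels. It was 2.01, 2.28, 2.21, 2.62 and 1.36 in GNA11 Q209L Bap1 KO, 3.41 and 2.36 in GNA11 Q209L, and -1.65, -0.55, -1.01 and 1.48 in BRAF V600E Bap1 KO. Ednrb exceeded Ednra in counts in all 7 libraries with GNA11 Q209L, and in BRAF V600E Bap1 KO only in replicate 4. GNA11 Q209L Bap1 KO averaged 2.10 ± 0.47 (SD, n = 5) and BRAF V600E Bap1 KO -0.43 ± 1.35 (SD, n = 4), a difference of 2.53 (exact two-sided permutation p = 0.0317, 0.19 adjusted over 6 ratio tests). The difference did not pass the adjustment. The smallest two-sided p that 5 against 4 libraries allow is 0.0159, and only if both receptor ratios had reached it could either pass. GNA11 Q209L averaged 2.89 ± 0.74 (SD, n = 2), and neither GNA11 Q209L Bap1 KO against it (difference -0.79, exact p = 0.19) nor it against BRAF V600E Bap1 KO (difference 3.32, exact p = 0.133) passed. The difference of -0.79 was -0.27 without GNA11 Q209L replicate 1 and -1.32 without replicate 2. The smallest two-sided p these group sizes allow is 0.0952 and 0.133.

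The log2 ratio of Cysltr2 to Cysltr1 was below 0 in all 11 libraries. It averaged -2.02 ± 0.81 (SD, n = 5) in GNA11 Q209L Bap1 KO, -1.53 ± 0.53 (SD, n = 2) in GNA11 Q209L and -3.30 ± 0.90 (SD, n = 4) in BRAF V600E Bap1 KO. GNA11 Q209L Bap1 KO differed from BRAF V600E Bap1 KO by 1.28 (exact permutation p = 0.0635, 0.19 adjusted over 6). The difference from GNA11 Q209L was -0.49 (exact permutation p = 0.571), or -0.86 without GNA11 Q209L replicate 1 and -0.11 without replicate 2, and GNA11 Q209L differed from BRAF V600E Bap1 KO by 1.77 (exact permutation p = 0.133). With 0 to 2 counts of Cysltr2 a library in GNA11 Q209L Bap1 KO, its ratio there is set mostly by the 0.1 CPM added to each gene.

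**Figure D4:**
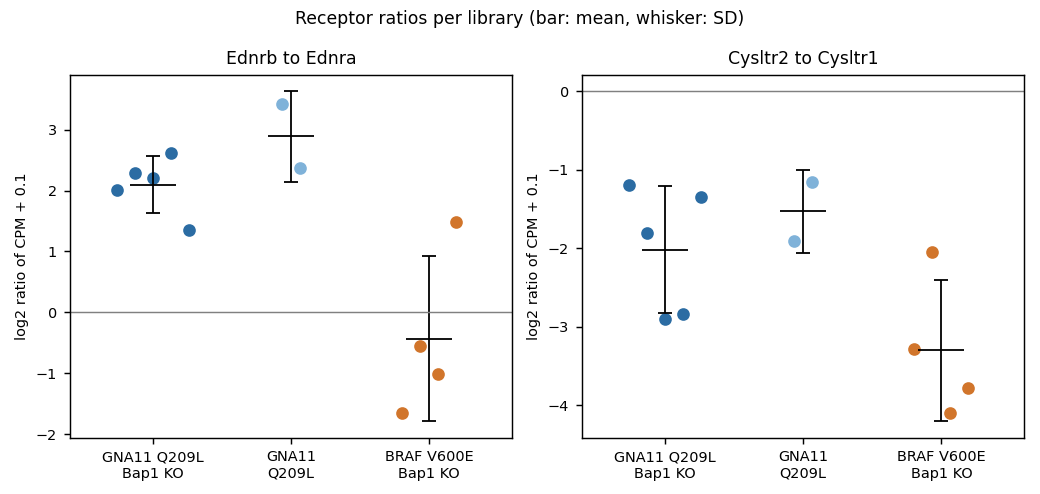
Log2 ratio of Ednrb to Ednra (left) and of Cysltr2 to Cysltr1 (right) in each library, with 0.1 CPM added to each gene, points for libraries, the bar for the mean and the whisker for the SD. Ednrb exceeds Ednra in all 7 GNA11 Q209L libraries and in 1 of 4 BRAF V600E Bap1 KO libraries.

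Other genes that make or clear the ligands were also read. Of 7 genes of endothelin processing and clearance tested, 0 were called with GNA11 Q209L Bap1 KO set against GNA11 Q209L (median log2 fold change 0.05, all genes -0.004). Against BRAF V600E Bap1 KO 2 were lower in GNA11 Q209L Bap1 KO, Mme and Pcsk5, with a median of -1.53 (all genes -0.26). Of all genes tested, 24.7% were called lower in that comparison, so 2 of 7 is near the share of all genes. Mme, the cell-surface neprilysin that degrades endothelins among other peptides, averaged 0.266 ± 0.213 against 28.8 ± 16.3 CPM (log2 -6.75 ± 0.85 SE, edgeR adjusted p = 0.000584). Pcsk5, a proprotein convertase, averaged 1.61 ± 1.31 against 31.7 ± 16.4 CPM (log2 -4.29 ± 0.67, edgeR adjusted p = 0.00146). In GNA11 Q209L both genes were lower than in BRAF V600E Bap1 KO too (log2 -3.76 and -4.74, edgeR adjusted p = 0.0419 and 0.017).

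For the leukotrienes, 15 genes of synthesis and other receptors were tested. None was called for GNA11 Q209L Bap1 KO against GNA11 Q209L (median -1.46). Against BRAF V600E Bap1 KO 9 were lower and 1 higher in GNA11 Q209L Bap1 KO, with a median of -3.46. Over all genes tested there, 24.7% were called lower and 16.5% higher. Macrophage and mast cell genes moved in the same comparison, with log2 fold changes of -7.96 for Cd163, -5.05 for Mrc1 and -6.20 for Cpa3, and 3 of 11 macrophage and 8 of 9 mast cell genes called lower. Leukocytes are known to express genes of this list such as Alox5, and their part in it was not tested. Alox5, the lipoxygenase that starts leukotriene synthesis, averaged 0.236 ± 0.189 against 17.0 ± 19.0 CPM (log2 -6.21 ± 0.94 SE, edgeR adjusted p = 0.00129). Pla2g4a, the phospholipase that frees arachidonic acid, was lower at 2.76 ± 0.887 against 32.7 ± 33.4 CPM (adjusted p = 0.00224), and Dpep1, a dipeptidase that trims leukotriene D4 to E4, at 0.649 ± 0.526 against 49.7 ± 39.7 CPM (adjusted p = 0.00263). Lta4h, which leads to leukotriene B4 and away from the cysteinyl leukotrienes, was the gene that rose, at 220 ± 30.9 against 79.0 ± 19.1 CPM (log2 1.48 ± 0.21, edgeR adjusted p = 0.00106). GNA11 Q209L shared both calls for Lta4h (log2 1.05) and Alox5 (log2 -4.80) against BRAF V600E Bap1 KO, and no other gene of the list passed there.

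Downstream of the receptors, 17 genes of the Gq core were tested. Against BRAF V600E Bap1 KO 5 were higher and 3 lower in GNA11 Q209L Bap1 KO, with a median of -0.21 beside -0.26 for all genes. Calls over all genes tested were 16.5% higher and 24.7% lower. In either direction they were 41.2%, which is near the share of this list. Rasgrp3, which links Gq to Ras, averaged 643 ± 271 against 8.03 ± 5.58 CPM and Prkce, a protein kinase C, 72.1 ± 19.3 against 21.2 ± 9.42 CPM. Gna14, a Gq family subunit, was lower at 0.768 ± 0.382 against 16.6 ± 12.3 CPM, as was the phospholipase Plcb1 at 2.67 ± 0.819 against 15.6 ± 10.7 CPM. The edgeR adjusted p for these genes ran from 0.000173 to 0.00811. In GNA11 Q209L against BRAF V600E Bap1 KO only Rasgrp3 passed (168 ± 52.6 against 8.03 ± 5.58 CPM, edgeR adjusted p = 0.00257), and none passed for GNA11 Q209L Bap1 KO against GNA11 Q209L.

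Of 21 other Gq-coupled receptor genes tested, 11 fell and 2 rose for GNA11 Q209L Bap1 KO against BRAF V600E Bap1 KO. The median of the 21 was -2.0, where 24.7% of all genes were called lower and 16.5% higher. The 4 with the smallest p were Chrm3 for acetylcholine (0.0904 ± 0.108 against 11.4 ± 10.8 CPM), F2rl1 for trypsin-like proteases (0.862 ± 0.923 against 24.5 ± 15.8 CPM), Avpr1a for vasopressin (1.18 ± 0.391 against 6.77 ± 3.01 CPM) and F2r for thrombin (22.7 ± 15.6 against 98.5 ± 28.1 CPM). Their edgeR adjusted p ran from 0.00232 to 0.0056. For GNA11 Q209L Bap1 KO against GNA11 Q209L, 0 were called (median -1.41). Between GNA11 Q209L and BRAF V600E Bap1 KO the oxytocin receptor gene Oxtr and F2r were lower and the prostaglandin receptor gene Ptger1 was higher, with edgeR adjusted p from 0.0305 to 0.0453.

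The genes most like each member were sought by the root mean square difference of log2 CPM, centred on each gene's mean, over the 11 libraries. Ednra was nearest to Dennd2a, Fgf7 and Gpr153, at 0.35, 0.47 and 0.50 log2 units, where its own SD over the libraries was 1.42. Ednrb was nearest to Clec14a, Creg1 and Gltp, at 0.71, 0.75 and 0.76 where its own SD was 1.38. Cysltr1 was nearest to F630028O10Rik, Rasgrp1 and Pamr1 (0.50, 0.51 and 0.61, own SD 2.17) and Cysltr2 to Tlr1, Ly6a and Galntl2 (0.55, 0.62 and 0.64, own SD 1.82). Edn1 was nearest to 2610018G03Rik, Mndal and Ighm (0.53, 0.65 and 0.67, own SD 2.0) and Ece1 to Pygo2, Sik3 and Pprc1 (0.25, 0.26 and 0.28, own SD 0.48). Edn2 was nearest to Abcb4, Folr2 and Foxc1 (0.85, 0.85 and 0.86) and Edn3 to Aatk, Ggct and Plekha4 (0.44, 0.46 and 0.51), where counts of 0 shape most of the pattern.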

How the data were processed

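For the 11 libraries the authors deposited 1 table of unnormalised expected counts by gene. All of its gene values are whole. Per the submitters' processing notes, STAR and the build mm9 were used. Not given in the sources used here are the STAR version, counting program, annotation and use of strand, so overlapping genes may share reads. Repeated gene lines (7), 6 transgene lines and 3 quality lines were kept out of library sizes.

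Counts were tested with edgeR 4.0.16 (R 4.3.3), with TMM scaling, the default expression filter by genotype (17350 genes kept, all 8 members among them) and all 11 libraries in the fit with genotype as the only term. Tests were two-sided with Benjamini-Hochberg adjustment across all genes tested, and an SE is the fold change over the root of its F statistic. The filter needs counts in as few as 2 libraries, so members could pass through the genotype where they are high. CPM values are TMM-scaled. Ratios used 0.1 CPM added to each gene and exact permutation tests. Intervals and limits cover counting error only. The scripts were tested on simulated data.

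Alternatives were other scaling, no filter, DESeq2 1.42.0, limma 3.58.1 with voom, fewer genotypes in the fit, summing libraries with a shared identifier, and leaving out each library. Leaving out the BRAF libraries given as NA was added after seeing the table. The text names the 8 members, up to 4 called genes of each list with the smallest p, and the 3 genes nearest to each member among genes averaging at least 1 on the log2 CPM scale. Of the gene lists, those of the pathway are given by counts and medians and those of cell types by summed CPM. The members and lists were chosen with earlier results of these data known.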

Additional observations from a re-analysis of the deposited data

How the results depend on the processing

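Of 399 refits of a member's fold change or p, 375 kept both direction and side of the threshold, 2 lost a call, 12 gained a call and 10 reversed. For GNA11 Q209L Bap1 KO against GNA11 Q209L, the count of 5 genes was 3 with DESeq2's median-of-ratios scaling or with no filter, 443 with DESeq2, 64 with edgeR on these genotypes alone, and 0 with edgeR after summing libraries that share an identifier (1743 at an unadjusted p under 0.05). Leaving out single libraries gave 0 to 13 genes with edgeR (945 to 2221 at an unadjusted p under 0.05), with 0 without GNA11 Q209L Bap1 KO replicate 1, 2 or 3 or either GNA11 Q209L library, 1 without GNA11 Q209L Bap1 KO replicate 4 or 5, and 13 without BRAF V600E Bap1 KO replicate 1. For GNA11 Q209L Bap1 KO against BRAF V600E Bap1 KO, the 7146 genes (2865 higher, 4281 lower) were 3571 without BRAF replicates 2 and 4 together, an alternative chosen after seeing the table. Scaling by total counts alone gave 1746 higher and 5725 lower, as it moved the median of all genes to -0.64, from -0.26, and Edn3 was then called (adjusted p = 0.0454). Between GNA11 Q209L and BRAF V600E Bap1 KO the 2637 genes (1609 higher, 1028 lower) were 5425 with DESeq2, 417 with edgeR on these genotypes alone, 838 without BRAF replicates 2 and 4, and 265 to 2867 on leaving out single libraries (265 and 1078 without GNA11 Q209L replicate 2 and 1, 1737 without BRAF replicate 2). In that comparison total counts alone gave 863 higher and 1602 lower.

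Against GNA11 Q209L, leaving out single libraries gave GNA11 Q209L Bap1 KO log2 fold changes of -2.97 to 1.23 for Cysltr1, -4.33 to 0.085 for Cysltr2 and -1.50 to 3.39 for Edn1, which was 0.18 with limma voom. Against BRAF V600E Bap1 KO it gave -1.12 to 0.22 for Ednrb and -0.28 to 0.29 for Ece1. Ednrb was 0.054 without BRAF replicates 2 and 4, and Ece1 was 0.025 with limma voom. The log2 ratio of Cysltr2 to Cysltr1 differed by 0.26 in GNA11 Q209L Bap1 KO against GNA11 Q209L with 1 CPM added, turned from -0.49. This refit changed only the CPM added to each gene. That amount sets most of the ratio in GNA11 Q209L Bap1 KO, where Cysltr2 averaged 0.0492 CPM. DESeq2 gave no adjusted p for Ednrb, and Edn2, Edn3 or Cysltr2 could not be fitted where a smaller set of libraries filtered them out. No paired analysis was possible because the labels number no replicates across genotypes. Depth limits Cysltr1, Cysltr2 and the ligands in the GNA11 Q209L tumours.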
